A study of Homo sapiens with 8 samples.

Results

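The Krüppel-like factors (KLFs) described here are 10 genes: KLF2, KLF3, KLF4, KLF5, KLF6, KLF9, KLF10, KLF11, KLF13 and KLF15. They were measured in OVSAHO and KURAMOCHI cells, both established lines of serous ovarian carcinoma, incubated with simvastatin or with L-778123. The genes were chosen by name as a family, with KLF2 as its known statin-responsive member and with earlier drug contrasts of these arrays in view, and each was represented by its brightest probe, selected on the mean log2 signal over all 8 arrays. The 10 genes stand among 22428 named genes with a probe, of which 16942 had that probe tested. KLF6 alone of the 10 had another probe among those analysed.

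Simvastatin inhibits HMG-CoA reductase, the rate-limiting enzyme of the mevalonate pathway, which supplies sterols and the lipid groups attached to prenylated proteins. L-778123 inhibits the farnesyl and geranylgeranyl transferases, the enzymes that attach these lipid groups. The 4 groups were OVSAHO with simvastatin, OVSAHO with L-778123, KURAMOCHI with simvastatin and KURAMOCHI with L-778123, with 2 arrays each. No group without a drug was used here, so that every drug contrast sets simvastatin against L-778123, and a higher level with simvastatin cannot be told apart from a lower level with L-778123. The dose and the time of incubation of these cultures are not given in the sources used here. Nothing in the labels says that the 2 arrays of a group came from separate cultures, so that the p-values measure only the spread between these samples, which may be technical.

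KLFs are zinc finger transcription factors that bind GC-rich and CACCC sequences. Some, such as KLF2 and KLF4, mainly activate genes of quiescence and vessel protection, while others, such as KLF3, KLF9, KLF10, KLF11 and KLF13, recruit CtBP or SIN3 corepressors. KLF2 is known from endothelial cells as a gene that statins raise and that lies downstream of the kinase ERK5 and the MEF2 factors. For that reason its own drug contrast is given below as a description, with no test, and the counts of members are over the other 9 genes.

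The arrays were alike in quality. The 75th percentile of the signal lay between 324.5 and 437.2 intensity units, 51.8 to 57.5% of 58162 probes were well above background, and replicate arrays correlated at 0.9949 to 0.9958 over probes. Each cell line lay in its own row of the slide and each drug in its own columns, and group and slide position cannot be told apart here. The labels of the lines were set against marker genes. All 9 serous and epithelial markers, among them PAX8 and WT1, were well above background on all arrays. Their summed linear levels were 431 to 816 times the 75th percentile over the groups, mainly from bright keratin genes and CLDN4. In KURAMOCHI, MUC16 and CDH1 were dim, at mean log2 levels of -3.09 and -2.24 with simvastatin and -2.1 and -2.23 with L-778123. Of 5 endothelial markers, where KLF2 and KLF4 are best known, 2 were well above background on all arrays and PECAM1 on none, and their summed level was 0.307 to 1.16. The 4 leukocyte markers summed to 0.977 to 2.0, with 3 of them well above background on all arrays, and the 4 fibroblast markers summed to 0.0422 to 0.195, with 3 of them well above background on none.

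The sequences before the gene starts are shown for KLF2, for KLF6 and KLF13, the members with the largest tested drug contrasts in OVSAHO and KURAMOCHI respectively, and for KLF9, whose window differs most from theirs in composition. They are the 250 bases upstream of the start in RefSeq on GRCh38.p14, written 5′ to 3′ in the direction of transcription, and capitals mark GC boxes (GGGCGG on either strand) and, in KLF2, a match to the MEF2 consensus.

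KLF2, chr19:16324576-16324825, plus strand: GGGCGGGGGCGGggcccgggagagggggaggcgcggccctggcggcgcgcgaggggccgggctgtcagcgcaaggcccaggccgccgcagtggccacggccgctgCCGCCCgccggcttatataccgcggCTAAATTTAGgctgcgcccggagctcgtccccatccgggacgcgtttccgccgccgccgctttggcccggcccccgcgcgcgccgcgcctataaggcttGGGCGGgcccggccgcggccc

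KLF6, chr10:3785210-3785459, minus strand: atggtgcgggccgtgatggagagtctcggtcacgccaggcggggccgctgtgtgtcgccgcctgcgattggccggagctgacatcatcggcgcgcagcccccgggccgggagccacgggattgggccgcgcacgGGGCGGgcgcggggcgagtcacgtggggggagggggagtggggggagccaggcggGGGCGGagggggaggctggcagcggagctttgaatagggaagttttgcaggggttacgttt

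KLF13, chr15:31326585-31326834, plus strand: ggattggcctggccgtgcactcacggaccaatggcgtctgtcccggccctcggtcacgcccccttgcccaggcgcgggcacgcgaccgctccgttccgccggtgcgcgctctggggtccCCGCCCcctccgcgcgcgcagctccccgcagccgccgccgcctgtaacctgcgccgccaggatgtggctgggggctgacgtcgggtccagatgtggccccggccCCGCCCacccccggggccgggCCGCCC

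KLF9, chr9:70414658-70414907, minus strand: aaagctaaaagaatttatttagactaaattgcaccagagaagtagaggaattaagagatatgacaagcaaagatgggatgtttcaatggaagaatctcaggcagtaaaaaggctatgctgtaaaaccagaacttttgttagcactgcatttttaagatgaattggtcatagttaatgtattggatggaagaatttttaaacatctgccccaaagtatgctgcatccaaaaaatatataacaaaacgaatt

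The KLF2 window was 80% G and C and held 4 GC boxes, the KLF6 window 72.4% with 2, and the KLF13 window 78.8% with 3. The KLF9 window, at the start listed for that gene, was 32.4% G and C and held no GC box. Over all 35116 start sites in the table the median was 58%, and 45.0% of the windows, which also include a short stretch after the start, held a GC box. KLF2 carried CTAAATTTAG, beginning 120 bases before the start, which matches the degenerate MEF2 consensus. The search with the degenerate consensus was chosen after the sequences were seen, and 2.99% of all windows held a match on either strand. No other member among the 8 genes with an entry used here held one. These matches describe the letters of the windows, and binding was not measured.

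KLF2, the statin-responsive member, was far higher in OVSAHO cells with simvastatin than in any other group. Its log2 level relative to the 75th percentile of the array was 6.65 and 6.69 there, 0.98 and 1.21 in OVSAHO with L-778123, 0.78 and 0.73 in KURAMOCHI with simvastatin, and -3.68 and -4.29 in KURAMOCHI with L-778123. The groups did not overlap, and the order was the same for every pair of arrays. The gap between OVSAHO with L-778123 and KURAMOCHI with simvastatin was small, 0.34 on the log2 scale or 1.26-fold, so that KURAMOCHI cells with simvastatin came near the level that OVSAHO cells had with L-778123. The level in KURAMOCHI with L-778123 was well above background on 1 of 2 arrays.

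As a description, KLF2 was 47.8-fold higher with simvastatin than with L-778123 in OVSAHO (log2 5.58, SE 0.20) and 26.8-fold higher in KURAMOCHI (log2 4.75, SE 0.20). These were the 3rd highest and the highest log2 fold changes of 16942 genes. The KURAMOCHI value rests on a dim group, and it was 2.93 on the log2 scale after normexp, a background correction that started from the median spot signal and added an offset of 50, and 4.44 to 5.05 when an array was left out. The line itself was not part of what named KLF2: averaged over the drugs, its level was 45.2-fold higher in OVSAHO (log2 5.50, SE 0.14, adjusted p = 6.79e-07), and by 4.5 on the log2 scale after normexp. OVSAHO exceeded KURAMOCHI by 5.91 on the log2 scale with simvastatin and by 5.08 with L-778123.

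**Figure D1:**
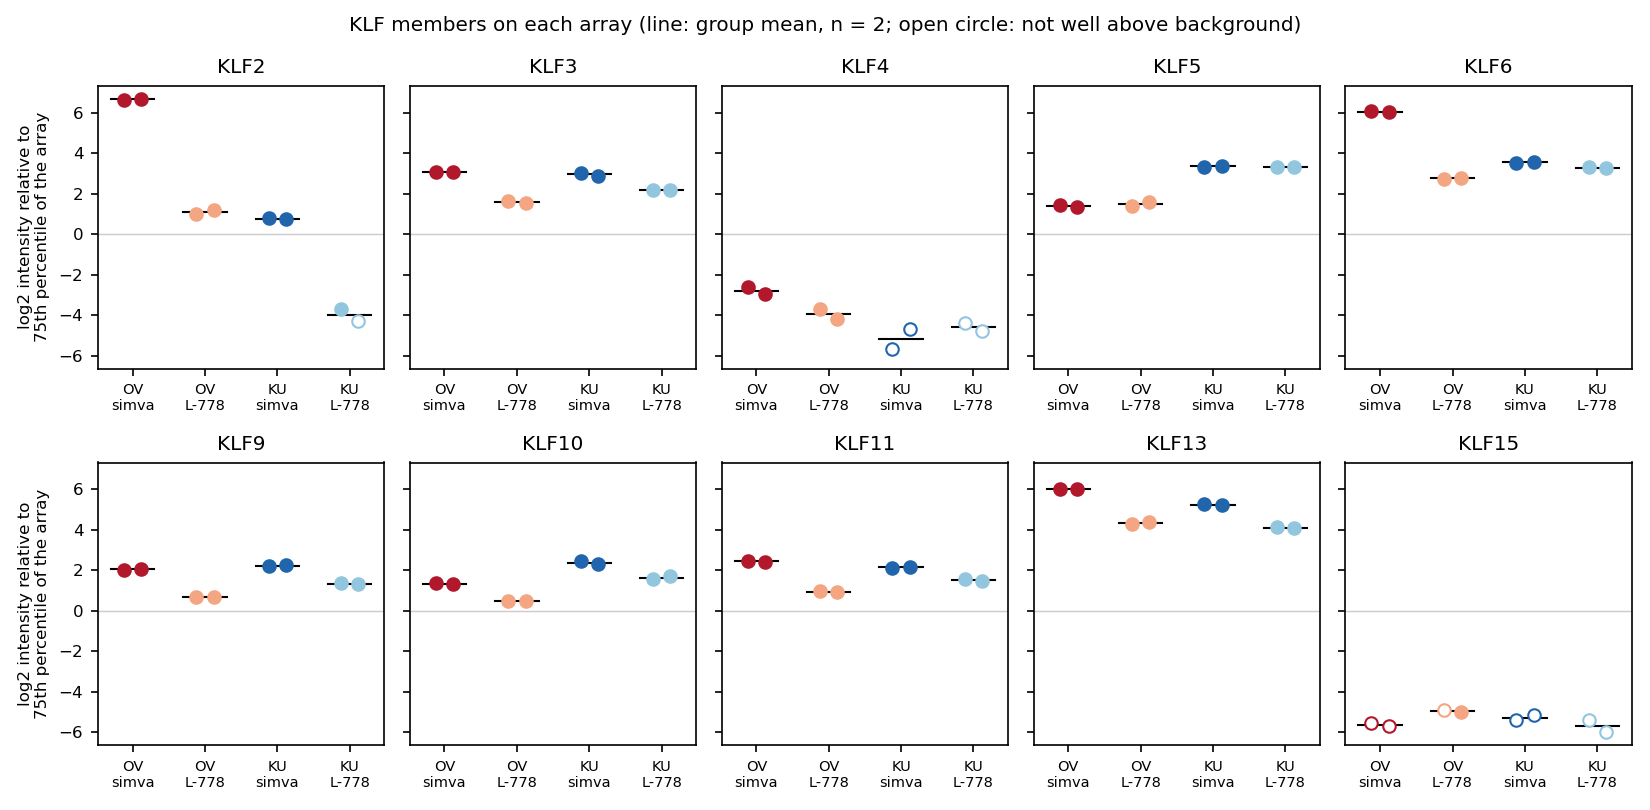
Log2 intensity of each KLF gene relative to the 75th percentile of the array (y axis) on the 8 arrays, by group (x axis; OV is OVSAHO, KU is KURAMOCHI, simva is simvastatin, L-778 is L-778123). Points are arrays, lines are means of 2 arrays, and open circles were not well above background; KLF2 and KLF6 stand highest in OVSAHO with simvastatin, at 6.67 and 6.05, and KLF15 was well above background on 1 of 8 arrays.

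Among the other 9 members, 6 rose with simvastatin against L-778123 in OVSAHO by adjusted p under 0.05 and a fold of at least 2: KLF6, KLF13, KLF11, KLF3, KLF9 and KLF4. Of these, 5 were called in every alternative and KLF4 was not. None fell by limma, and none was lower at an unadjusted p under 0.05. Of the 9, 8 were tested, and across all probes tested in this contrast 4.78% were called higher and 6.19% lower. In KURAMOCHI 1 member, KLF13, rose by this rule, against 2.05% of all probes called higher and 3.54% called lower. By adjusted p alone, 7 members were higher in OVSAHO, where 23% of all probes were, and 6 in KURAMOCHI, where 14.1% were, KLF6 among them with a value that did not hold in several alternatives. The median log2 fold change was 1.42 over the 8 tested members in OVSAHO and 0.73 over the 7 that were measured above background in KURAMOCHI, beside 0.0141 and 0.0121 over all tested genes. The members were chosen with earlier drug contrasts of these arrays in view. These counts and medians, and those of the difference between the lines below, therefore describe the chosen genes and are no test of the family. A change in the share of cells with a transcript and a change in its level per cell cannot be told apart in these bulk samples.

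KLF6, a factor of injury and stress responses that also acts as a tumor suppressor in several cancers, was the member whose drug contrast differed most between the lines. Its log2 level was 6.09 and 6.02 in OVSAHO with simvastatin, 2.74 and 2.79 in OVSAHO with L-778123, 3.53 and 3.56 in KURAMOCHI with simvastatin, and 3.33 and 3.25 in KURAMOCHI with L-778123. The OVSAHO arrays with simvastatin stood far above the other 6, which lay close together. KLF6 was 9.75-fold higher with simvastatin in OVSAHO (log2 3.29, SE 0.061, adjusted p = 1.28e-05) and 1.19-fold higher in KURAMOCHI (log2 0.25, SE 0.061, adjusted p = 0.0275). The KURAMOCHI value did not pass when any of the 4 KURAMOCHI arrays was left out (adjusted p = 0.0586 to 0.121), with the groups compared alone (0.0663) or with no filter (0.113). The contrast differed between the lines by 3.03 on the log2 scale (SE 0.086, adjusted p = 0.000156).

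The other KLF6 probe was dimmer, with mean log2 levels of -0.99, -3.11, -2.85 and -3.39 in OVSAHO with simvastatin, OVSAHO with L-778123, KURAMOCHI with simvastatin and KURAMOCHI with L-778123. It gave the same direction in each contrast, with log2 fold changes of 2.12 in OVSAHO (adjusted p = 0.000255) and 0.53 in KURAMOCHI (adjusted p = 0.0497), and a difference of 1.59 (adjusted p = 0.00663). With L-778123 the brighter probe was lower in OVSAHO than in KURAMOCHI by 0.52 on the log2 scale, and with simvastatin it was higher by 2.51. The mean of the dimmer probe was higher in OVSAHO with both drugs, though with L-778123 its arrays overlapped between the lines. KLF6 ranked 52nd of 16942 genes from the highest fold change in OVSAHO and 3859th in KURAMOCHI.

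KLF13, which can recruit SIN3 and is known from lymphocytes and the heart, rose in both lines. Its log2 level was 6.01 and 6.03 in OVSAHO with simvastatin against 4.27 and 4.4 with L-778123, and 5.25 and 5.23 in KURAMOCHI with simvastatin against 4.14 and 4.07. The drug groups did not overlap in either line. The fold changes were 3.21 in OVSAHO (log2 1.68, SE 0.067, adjusted p = 4.5e-05) and 2.2 in KURAMOCHI (log2 1.14, SE 0.067, adjusted p = 0.000354). The difference between the lines was 0.55 on the log2 scale (SE 0.095, adjusted p = 0.0131), and KLF13 ranked 340th and 344th of all genes in OVSAHO and KURAMOCHI.

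KLF3, KLF9 and KLF11, each a repressor, rose in OVSAHO and were higher by less than 2-fold in KURAMOCHI. KLF3, which binds CtBP, was at 3.07 and 3.06 in OVSAHO with simvastatin, 1.64 and 1.55 with L-778123, 3.05 and 2.89 in KURAMOCHI with simvastatin and 2.17 and 2.20 with L-778123. With simvastatin the lines were alike in KLF3 to within 0.10 of mean log2 level, and with L-778123 OVSAHO was lower by 0.59. Its log2 fold change was 1.47 in OVSAHO (SE 0.074, adjusted p = 8.12e-05) and 0.78 in KURAMOCHI (SE 0.074, adjusted p = 0.00137), a difference of 0.69 (adjusted p = 0.00885).

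KLF9, known as a target of glucocorticoid, progesterone and thyroid hormone receptors, was at 2.01 and 2.08 in OVSAHO with simvastatin, 0.68 and 0.66 with L-778123, 2.19 and 2.24 in KURAMOCHI with simvastatin and 1.37 and 1.31 with L-778123. Both lines had the lower values with L-778123, and no drug groups overlapped. The log2 fold change was 1.38 in OVSAHO (SE 0.058, adjusted p = 5.02e-05) and 0.88 in KURAMOCHI (SE 0.058, adjusted p = 0.000465). The difference was 0.50 (SE 0.082, adjusted p = 0.0111).

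KLF11 and KLF10 are both early genes of TGF-beta signaling. KLF11 was at 2.48 and 2.43 in OVSAHO with simvastatin, 0.96 and 0.94 with L-778123, 2.13 and 2.15 in KURAMOCHI with simvastatin and 1.55 and 1.49 with L-778123. Its log2 fold change was 1.5 in OVSAHO (SE 0.054, adjusted p = 3.36e-05) and 0.62 in KURAMOCHI (SE 0.054, adjusted p = 0.00106), and the difference was 0.89 (adjusted p = 0.00155). KLF10 was at 1.35 and 1.31 in OVSAHO with simvastatin, 0.50 and 0.47 with L-778123, 2.44 and 2.30 in KURAMOCHI with simvastatin and 1.58 and 1.70 with L-778123. For KLF10 the 2 lines gave close values, 0.85 in OVSAHO (adjusted p = 0.000488) and 0.73 in KURAMOCHI (adjusted p = 0.00173), both under 2-fold, and the difference was 0.12 with a 95% interval of -0.15 to 0.38 (adjusted p = 0.476).

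KLF5, which sustains proliferation in epithelia, was the only tested member that was not higher with simvastatin by adjusted p in either line. Its log2 level was 1.44 and 1.33 in OVSAHO with simvastatin, 1.41 and 1.57 with L-778123, 3.33 and 3.39 in KURAMOCHI with simvastatin and 3.34 and 3.32 with L-778123. In both lines the drug groups overlapped, while the lines stood apart. The log2 fold change was -0.11 in OVSAHO, with a 95% interval of -0.30 to 0.08 (adjusted p = 0.29), and 0.03 in KURAMOCHI, with an interval of -0.17 to 0.22 (adjusted p = 0.82). As ratios of simvastatin to L-778123, these intervals are 0.811 to 1.06 in OVSAHO and 0.891 to 1.16 in KURAMOCHI.

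KLF4, which acts with KLF2 in endothelium and is a reprogramming factor, was dim. Its log2 level was -2.61 and -2.96 in OVSAHO with simvastatin and -3.71 and -4.21 with L-778123, with no overlap between the groups, and all 4 KURAMOCHI arrays were not well above background. The OVSAHO contrast was 1.17 on the log2 scale (SE 0.36, adjusted p = 0.0401). This call did not hold when any of the 4 OVSAHO arrays was left out, where the value was 0.92 to 1.43 with adjusted p of 0.0638 to 0.166, nor when either KURAMOCHI array with L-778123 was left out (adjusted p = 0.0573), nor after normexp, quantile normalization, no filter or a replicate block. Against KURAMOCHI, where it was not well above background, KLF4 was at least 3.14-fold higher in OVSAHO with simvastatin and at least 1.49-fold higher with L-778123, and its line difference was 0.43 on the log2 scale after normexp, under 2-fold. KLF15, known from glucocorticoid and metabolic responses, was well above background on 1 of 8 arrays, of OVSAHO with L-778123, and was not tested; its log2 levels lay between -6.00 and -4.90.

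**Figure D2:**
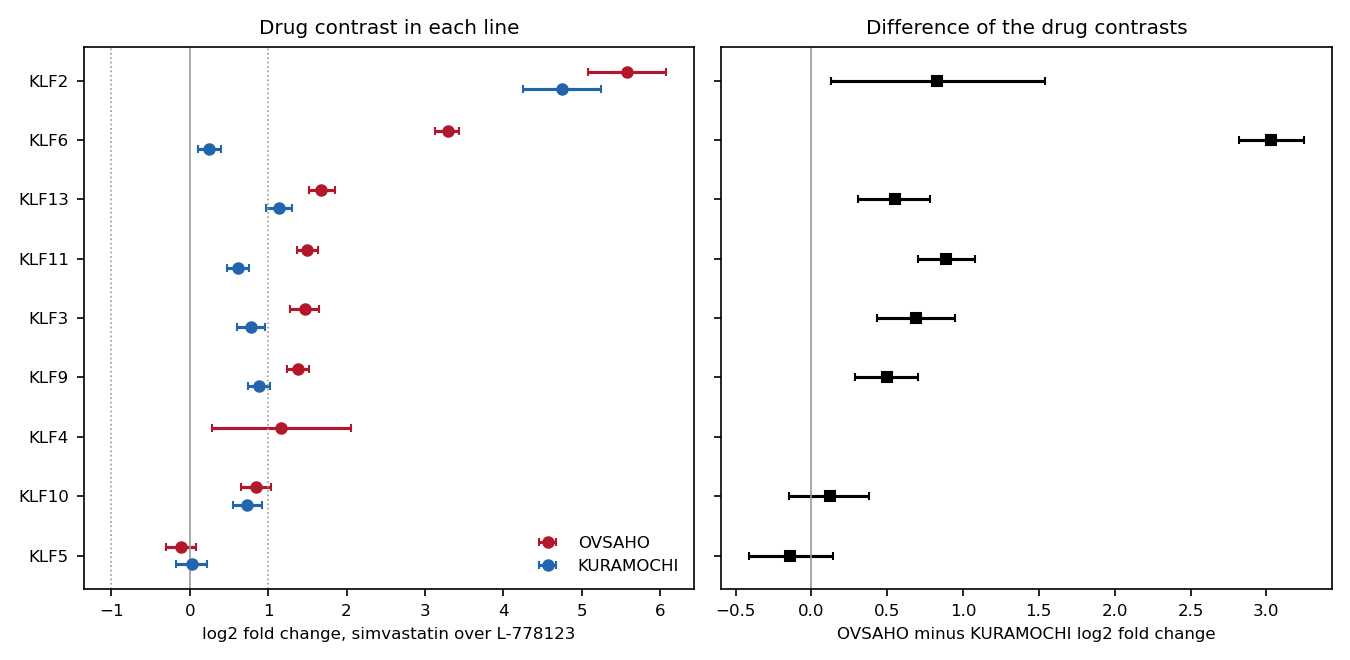
Left, log2 fold change of simvastatin over L-778123 (x axis) for each KLF gene in OVSAHO and KURAMOCHI; right, OVSAHO minus KURAMOCHI of those values. Points are estimates of the limma fit with 95% intervals, dotted lines mark 2-fold, KLF4 has no KURAMOCHI value and KLF15 was not tested; KLF6 has the highest value in the right panel at 3.03, against -0.14 to 0.89 for the other genes shown, of which KLF2 at 0.83 was 2.52 after normexp.

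The difference of the drug contrasts was called for KLF6 alone among the other 9 members, by adjusted p and a fold of at least 2, against 3.86% of all probes with the larger value in OVSAHO. By adjusted p alone, 5 members had the larger value in OVSAHO (KLF3, KLF6, KLF9, KLF11 and KLF13), where 11.2% of all probes did, and with no filter on dim probes KLF9 and KLF13 did not pass (adjusted p = 0.0575 and 0.0577). The median difference over the 7 members measured in both lines was 0.55, beside -0.00877 over all tested genes. KLF2 gave 0.83, as a description, but 2.52 after normexp, and 0.53 or 1.14 without the first or the second array of KURAMOCHI with L-778123.

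Averaged over the drugs, OVSAHO and KURAMOCHI differed by 2-fold or more in 4 of the 10 members. KLF2 and KLF4 were higher in OVSAHO and KLF5 and KLF10 were lower, where 17.6% of all probes were called higher and 16.1% lower. KLF4 passed the filter on dim probes through the OVSAHO groups alone, where it is brighter, and its line call was lost after normexp and was not tested when probes had to be well above background on all arrays. KLF5 was 3.75-fold lower in OVSAHO (log2 -1.91, SE 0.055, adjusted p = 9.88e-07) and KLF10 2.14-fold lower (log2 -1.10, SE 0.053, adjusted p = 7.13e-06). By its brighter probe KLF6 was just under the fold threshold at 0.99 on the log2 scale (adjusted p = 4.54e-06), and its other probe passed at 1.07 (adjusted p = 0.000216). The line difference of KLF5 was -1.97 with simvastatin and -1.84 with L-778123 and that of KLF10 -1.04 and -1.15, so that these kept their order with both drugs. KLF11 and the brighter KLF6 probe were higher in OVSAHO with simvastatin and lower with L-778123. KLF3 was nearly level between the lines with simvastatin (0.10) and lower in OVSAHO with L-778123 (-0.59). The dimmer KLF6 probe did not reverse: with L-778123 its mean log2 levels were -3.11 in OVSAHO and -3.39 in KURAMOCHI.

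**Figure D3:**
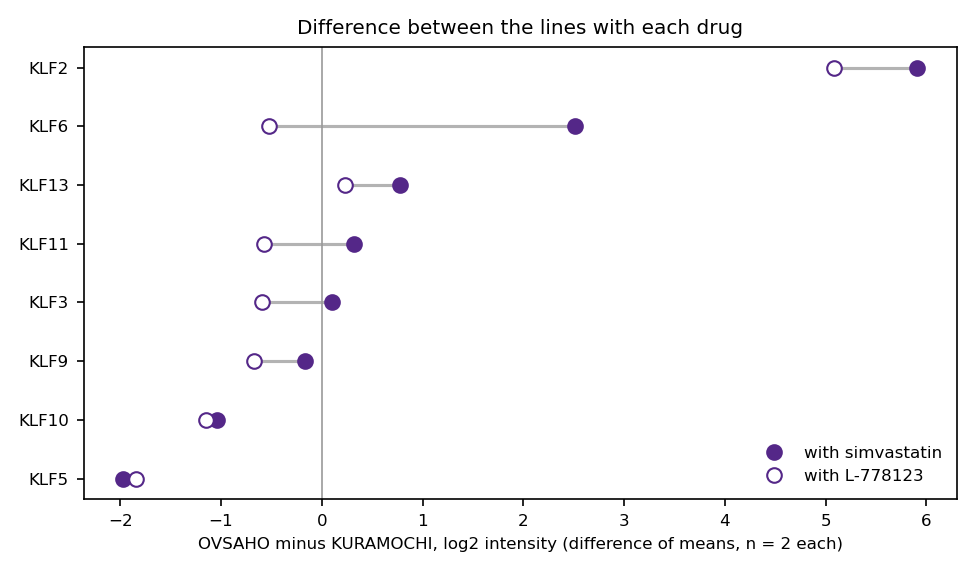
OVSAHO minus KURAMOCHI in log2 intensity (x axis) for each KLF gene except KLF4 and KLF15, with simvastatin (filled) and with L-778123 (open), as differences between means of 2 arrays. KLF6, by its brighter probe, moves from -0.52 with L-778123 to 2.51 with simvastatin, while KLF5 stays near -1.9 and KLF10 near -1.1.

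Over the 8 arrays the genes whose levels were most like KLF2 were CLDN4 (Pearson r 0.998), KLHL30 (0.997), SCGB1D1 (0.996), FAXDC2 (0.995) and IL13RA1 (0.995), named by that measure alone. CLDN4, a tight junction claudin, had log2 fold changes of 1.59 in OVSAHO and 1.20 in KURAMOCHI. Among the members, KLF13 was the most like KLF2 at 0.885, followed by KLF6 at 0.795 and KLF4 at 0.716, while KLF5 had -0.742. These correlations are descriptions over 8 arrays in 4 groups that share both lines and drugs.

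The wider family was read from 8 other KLF genes, of which 7 had a probe and 6 were tested. In OVSAHO, KLF7, known from neurons, and KLF8, a repressor that binds CtBP, rose, beside 4.78% of all probes called higher there. KLF7 was at -3.25 and -3.87 with simvastatin and not well above background on both arrays with L-778123, so that it was at least 2.57-fold higher. The limma fit gave 3.53 on the log2 scale (adjusted p = 0.000171), which takes those dim signals as levels and does not test the bound. In KURAMOCHI the KLF7 contrast was 0.21 on the log2 scale (adjusted p = 0.54), and with L-778123 it was at least 11.2-fold higher there than in OVSAHO. In OVSAHO the KLF8 contrast was 1.01 on the log2 scale (SE 0.13, adjusted p = 0.00207) and was not well above background in KURAMOCHI. KLF1, KLF12, KLF16 and KLF17 had log2 fold changes of -0.30 to 0.52 in OVSAHO and -0.37 to 0.26 in KURAMOCHI. The median of the 6 tested genes was 0.34 in OVSAHO, with KLF7 at its bound, and 0.03 over the 5 measured in KURAMOCHI. Of 9 SP factors, the nearest relatives, 1 was called higher in OVSAHO and 2 in KURAMOCHI, where 4.78% and 2.05% of all probes were. SP9 rose in both lines (log2 1.97, adjusted p = 8.13e-05, and 1.30, adjusted p = 0.000717). SP5 rose in KURAMOCHI (log2 1.22, adjusted p = 0.00204) and was not well above background on any OVSAHO array. SP1 had 0.52 and 0.30.

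Upstream of KLF2, the MEF2 and ERK5 list had 12 genes, all tested, with 2 called higher in each line, where 4.78% of all probes were in OVSAHO and 2.05% in KURAMOCHI, and none lower (1 and 0 lower at an unadjusted p under 0.05 in OVSAHO and KURAMOCHI), and medians of 0.30 in both. HDAC5, a deacetylase that binds MEF2 factors, rose in both lines, with log2 fold changes of 2.13 (SE 0.067, adjusted p = 2.55e-05) in OVSAHO and 1.34 (SE 0.067, adjusted p = 0.000249) in KURAMOCHI. HDAC9, of the same class, rose in OVSAHO (1.44, adjusted p = 0.00021; KURAMOCHI 0.15), and MEF2C in KURAMOCHI (1.28, adjusted p = 0.0008; OVSAHO 0.72). HDAC7 was lower in OVSAHO by just short of 2-fold (log2 -1.0, adjusted p = 0.000105; KURAMOCHI -0.01). MAPK7, which encodes ERK5, had 0.42 and 0.07, and MEF2A had 0.45 and 0.44. None of 11 partners and ligases of KLF proteins was called in either line by limma, among them the corepressor SIN3A and the ligase WWP1, with log2 fold changes of -0.26 to 0.35. By adjusted p alone, 3 of the 11 passed in OVSAHO and 2 in KURAMOCHI, where 48.1% and 31.4% of all probes did in either direction, and at an unadjusted p under 0.05 the list had 4 higher and 1 lower in OVSAHO and 3 higher and 1 lower in KURAMOCHI.

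Genes described as raised by KLF2 in endothelial and immune cells and read here numbered 10, of which 8 were tested. In OVSAHO 4 were called higher, where 4.78% of all probes were. CDKN1A, the p21 inhibitor of the cell cycle, was at least 9.29-fold higher with simvastatin, TEK, a vascular receptor kinase, at least 1.95-fold, a bound under the 2-fold of a call, HMOX1, heme oxygenase, was higher by 2.56 on the log2 scale (adjusted p = 2.04e-05) and AQP1, a water channel, 1.35 (adjusted p = 9.69e-05). In KURAMOCHI 2 rose, beside 2.05% of all probes, CDKN1A at 1.26 (adjusted p = 0.00169) and HMOX1 at 1.09 (adjusted p = 0.000495). NOS3, the endothelial nitric oxide synthase, had -0.95 in OVSAHO (adjusted p = 0.000444). The median log2 fold change was 1.14 in OVSAHO, or 0.95 with CDKN1A and TEK at their bounds, and 0.0515 in KURAMOCHI. Beside these vascular genes, the summed level of the 5 endothelial markers, TEK among them, was 0.307 with simvastatin and 0.877 with L-778123 in OVSAHO, and 0.888 and 1.16 in KURAMOCHI, and its part in the values was not tested. Of these markers, VWF was lower with simvastatin in OVSAHO (log2 -3.3, adjusted p = 2.43e-05) and CDH5 had -0.27, while TEK was higher.

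Genes described as lowered by KLF2 numbered 9, of which 5 were tested, with 1 called lower in OVSAHO and 2 in KURAMOCHI, where 6.19% and 3.54% of all probes were. CCL2, a monocyte chemokine, fell in both lines, with log2 fold changes of -3.33 (adjusted p = 1.28e-05) in OVSAHO and -1.78 (adjusted p = 0.000124) in KURAMOCHI. EDN1, endothelin, fell in KURAMOCHI by 2.53 on the log2 scale (adjusted p = 0.000107) and had 0.66 in OVSAHO (adjusted p = 0.00117). F3, tissue factor, had -0.96 and -0.91. MYC, a growth regulator, was higher by less than 2-fold in both lines, at 0.32 (adjusted p = 0.00816) and 0.49 (adjusted p = 0.00321). IL6 was not well above background in OVSAHO nor in KURAMOCHI with simvastatin, and with it left out in OVSAHO and at its bound in KURAMOCHI the medians were -0.32 and -0.91.

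The list of 7 genes beside KLF9 and KLF15 held glucocorticoid receptor targets and the receptor gene NR3C1. In OVSAHO 4 of the 7, NR3C1 among them, were called higher and 1 lower, where 4.78% and 6.19% of all probes were. In KURAMOCHI 1 was called higher and none lower, where 2.05% and 3.54% were. By adjusted p alone, 3 were higher and 3 lower in KURAMOCHI, the latter being FKBP5 (-0.37), DUSP1 (-0.44) and SGK1 (-0.72), and FKBP5 was lower in OVSAHO too (-0.29, adjusted p = 0.0145). TSC22D3, the GILZ protein, rose in both (log2 2.06, adjusted p = 2.33e-05, and 1.45, adjusted p = 0.000185), and NR3C1, the receptor itself, DUSP1 and PER1 rose in OVSAHO (1.49, 1.43 and 1.14), while SGK1 fell there (-1.22).

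The TGF-beta list beside KLF10 and KLF11 had 10 genes. In OVSAHO 2 were called higher and 2 lower, where 4.78% and 6.19% of all probes were. In KURAMOCHI none was called higher and 1 lower, where 2.05% and 3.54% were. The ligand genes TGFB2 and TGFB1 rose in OVSAHO (log2 2.02, adjusted p = 5.45e-05, and 1.79, adjusted p = 0.00233) and had 0.07 and 0.89 in KURAMOCHI. CCN2, a matricellular target, fell in both lines (-3.63, adjusted p = 0.000124, and -1.79, adjusted p = 0.00285). Of the inhibitory SMAD genes, SMAD6 fell in OVSAHO (-1.18, adjusted p = 0.000112). SMAD7 was higher by less than 2-fold in both lines (0.38, adjusted p = 0.00948, and 0.73, adjusted p = 0.0019). The medians of the list were 0.30 and 0.20.

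**Figure D4:**
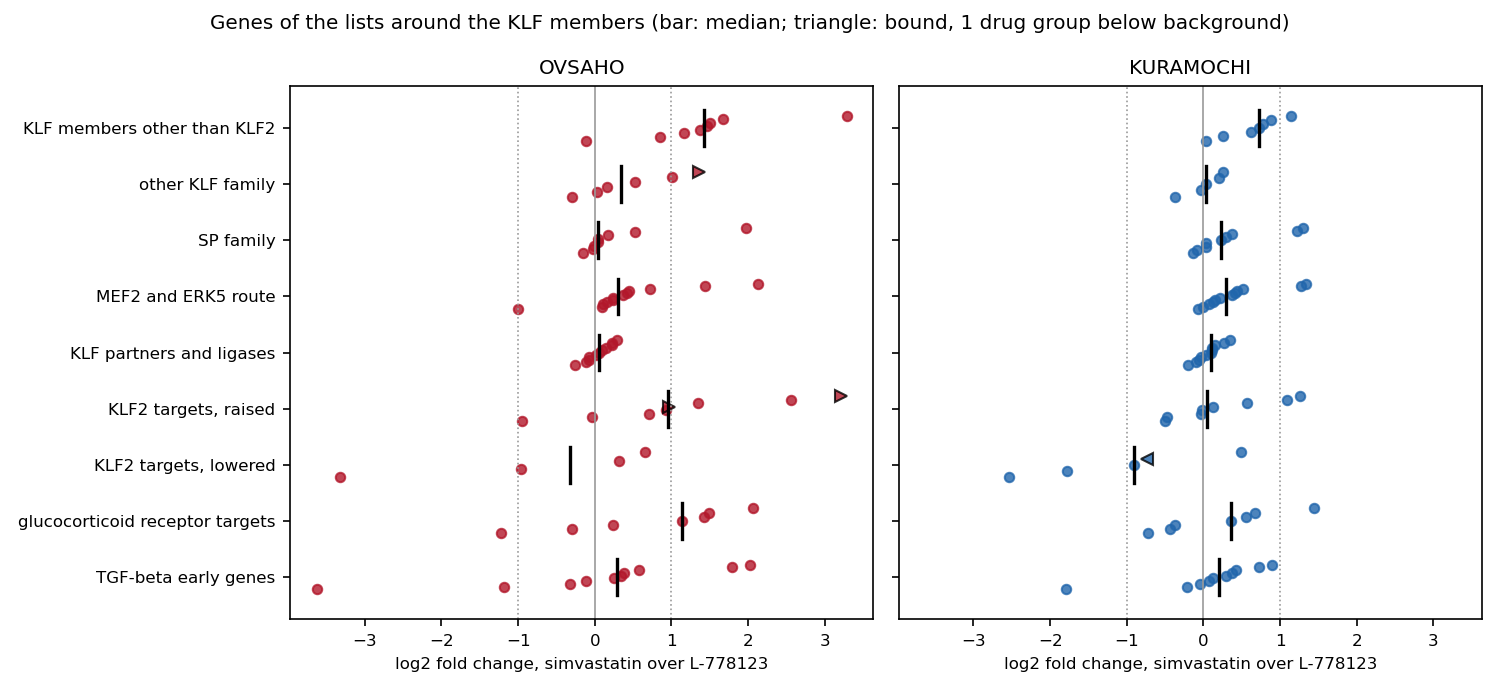
Log2 fold change of simvastatin over L-778123 (x axis) in OVSAHO (left) and KURAMOCHI (right) for the tested genes of each list (rows), with bars at the medians and dotted lines at 2-fold. Points are genes well above background in that line; triangles mark bounds of genes with 1 drug group below background, and the KLF members other than KLF2 have medians of 1.42 and 0.73.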

How the data were processed

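RNA of OVSAHO and KURAMOCHI cells was hybridized by the authors to 8 1-color Agilent arrays and read with Agilent Feature Extraction 11.5.1.1, per the labels. The deposited intensity is the processed signal of each spot, corrected for background by that software and not normalized between arrays, with flags for outlier spots, left out here, and for signal well above background. From it, log2 values of the spots of a probe were averaged and each array's 75th percentile was subtracted (58162 probes, 39 dropped). Testing took the 33753 probes that both arrays of any group showed well above background, and used limma 3.58.1 (R 4.3.3; lmFit, eBayes, 4 group means, Benjamini-Hochberg adjustment over all tested probes). Calls needed an adjusted p under 0.05 and a fold of at least 2. "At least" folds place a group not well above background at each array's dimmest signal that passed that flag, or at its own signal where higher. Symbols came from RefSeq accessions (24782 of 50096 identifiers matched). The members and lists were chosen with earlier results of these data known. Named genes are all members, at most 3 called genes per list and line with the largest changes, genes that bound a list's role, and the 5 most correlated with KLF2. AQP1, PER1, SGK1, SMAD6, SMAD7, HDAC7, NOS3, FKBP5, MYC, IL6, VWF, CDH5 and CDH1 were named after their values were seen. Some listed genes are not reported here. Alternatives covered background correction, normalization, the authors' deposited intensity table, filters, a replicate block, the methods' test, fold thresholds and leaving out each array. That table has the same 75th percentile, 383.6, on every array and correlated with the scanner signal at 0.99906 or more. The number of arrays limits the precision. Figures used matplotlib 3.10.9 in Python 3.11.15.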

Additional observations from a re-analysis of the deposited data

Results flagged for a closer look

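The drug contrast, simvastatin over L-778123, differed between OVSAHO and KURAMOCHI for 5 members by the test of the difference itself, each with the larger value in OVSAHO. On the log2 scale the difference was 3.03 for KLF6 (adjusted p = 0.000156), 0.89 for KLF11 (adjusted p = 0.00155), 0.69 for KLF3 (adjusted p = 0.00885), 0.55 for KLF13 (adjusted p = 0.0131) and 0.50 for KLF9 (adjusted p = 0.0111), by limma with 2 arrays per group. With no filter on dim probes KLF9 and KLF13 did not pass (adjusted p = 0.0575 and 0.0577). Of these, KLF6 alone differed by 2-fold or more.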

How the results depend on the processing

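Across 555 recomputed log2 fold changes of members, 530 kept their direction and their side of the threshold, or moved little, 12 were weaker (all KLF4), 5 stronger (KLF6 between the lines, at 1.00 to 1.03), 6 moved (all KLF2) and 2 reversed. The 6 members called in OVSAHO became 5 to 7, and 5 of them (KLF3, KLF6, KLF9, KLF11 and KLF13) were called in every alternative. The count in KURAMOCHI rose from 1 to 5 at a fold threshold of 1.5 and to 6 with no fold threshold, and that for the difference from 1 to 3 and 5. The count of 4 for the lines rose to 9 with no fold threshold and was 2 when probes had to be well above background on all arrays, where KLF2 and KLF4 were not tested. KLF5 in KURAMOCHI, near 0 in every fit, turned from 0.027 to -0.012 with normexp and to between -0.0021 and 0.06 without 1 array in turn; the cause was not tested. With no filter, the differences of KLF9 and KLF13 between the lines no longer passed by adjusted p (0.0575 and 0.0577). The KLF2 difference between the lines was 2.52 with normexp and 0.53 to 1.14 when an array was left out. Replicate numbers did not pair the arrays (correlations of deviations 0.000848 to 0.0555), and with the replicate block the OVSAHO count was 5, KLF4 being lost (adjusted p = 0.0648), and the counts for KURAMOCHI, the difference and the lines were 1, 1 and 4. The methods' test was not run for the difference, and fits of the compared groups alone give none. Signal over background limits KLF4 and KLF15 in both lines and KLF2 in KURAMOCHI with L-778123.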
